A study of Mus musculus with 32 samples.

Results

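The genes described here are the motile cilia genes, taken as every gene whose symbol begins with Cfap, Dnah, Dnai, Dnal, Dnaaf, Rsph, Drc or Tekt, or with Ift and a digit, with pseudogene symbols (-ps) left out. These were 87 of the 55341 genes of the deposited counts. Their levels were compared between ependymal barcodes and other barcodes, where a barcode is the tag that stands for a single captured cell. The data were single-cell RNA-seq counts from cortex and hippocampus of 16 female mice aged 15 months, with 1 library for each region and mouse (32 libraries). The mice were WT or carried the APP transgene, called Tg2576 by the study and Arctic in the strain labels. They drank water (vehicle) or water with PMX205, an antagonist of the complement receptor C5aR1, for 12 weeks at about 2 to 8 mg/kg/day. With vehicle there were 5 WT and 4 Tg2576 mice, and with PMX205 there were 3 WT and 4 Tg2576 mice, named below as in Tg2576-PMX205 1 by group and replicate. By strain label, 5 of these mice carried a constitutive C5ar1 knockout and 5 overexpressed C5a from the GFAP promoter, which is active in astrocytes. No comparison took account of this, and in WT-vehicle 4 and Tg2576-vehicle 3 the strain label contradicts the genotype label. Nothing marks the libraries as technical repeats, so the mouse was the replicate.

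Motile cilia are built on an axoneme, a ring of doublet microtubules around a central pair. Outer and inner dynein arms slide the doublets against each other, radial spokes and the nexin-dynein regulatory complex control that sliding, and tektins lie inside the doublet wall. Intraflagellar transport (IFT) carries parts into every kind of cilium, including the single primary cilium that many brain cells bear. In the adult brain the ependymal cells that line the ventricles carry tufts of motile cilia and move cerebrospinal fluid.

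Cells had been isolated with beads against CD11b (microglia) and ACSA-2 (astrocytes), so shares of ependymal barcodes describe this preparation and not the tissue. Of 5625 barcodes kept after limits on depth and doublets, 112 (1.99%) held UMIs (unique molecular identifiers, tags that count RNA molecules) of at least 2 of the 4 gate genes Ccdc153, Tmem212, Foxj1 and Tppp3. These are called ependymal here. The 5295 barcodes with none of the gate genes are called other, and 218 with 1 gate gene entered neither class. The name was checked on 11 ependymal genes outside the gate. Of these, 10 could be tested and all 10 were higher in ependymal barcodes (Rarres2 at 1850 CPM against 48.8, where CPM is the UMIs of a gene in every 1000000 UMIs of the same barcodes, Sntn at 229.5 against 0), whereas Nnat had no UMI there. Atp1b2, which encodes the ACSA-2 antigen, was at 540.1 CPM in ependymal barcodes and 967.9 in other barcodes, a difference that did not pass (adjusted p = 0.193, edgeR quasi-likelihood test), with 2769 in astrocytes and 111.5 in microglia. Genes of the choroid plexus, another ventricular epithelium, were higher in these barcodes too in 3 of 4 tested. Folr1 was at 292.5 CPM against 1.03 in other barcodes (31 of the 112 barcodes, log2 fold change 8.93), Clic6 at 144.0 against 2.74 and Otx2 at 117.0 against 1.88. Ttr did not pass, with 5 UMIs in 1 ependymal barcode, and Kl and Kcnj13 were at 0. The part of choroid plexus cells in the results was not tested. Libraries held 16 to 764 kept barcodes and 10212 to 836443 UMIs. WT-vehicle 1 alone gave 22.3% of the ependymal barcodes and 32.1% of their UMIs, and 10 libraries had no ependymal barcode.

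Markers of other cells were present in ependymal barcodes as well. Over mice with at least 3 ependymal barcodes, the 8 microglia markers summed to 2374 to 13100 CPM in ependymal and 15240 to 26510 in other barcodes, all 8 being present at some level in both. The 8 astrocyte markers, also all present, summed to 3144 to 9834 CPM in ependymal and 6449 to 18710 in other barcodes, and 4 of the 8 were lower in ependymal barcodes whereas none was higher. The 6 mural cell markers summed to 0 to 3350 against 1086 to 4444. The highest ependymal values of all 3 lists were those of Tg2576-PMX205 1 (13100, 9834 and 3350). Its deepest ependymal barcode, in cortex, had 10222 UMIs, of which 207 were of microglia, 115 of astrocyte and 45 of mural markers, 11 of gate genes and 34 of motile cilia genes. In 25 of the 112 ependymal barcodes, from 11 mice, microglia marker UMIs outnumbered gate UMIs. Few gate UMIs alone can place a barcode among these 25, so their level of motile cilia genes is not compared with that of the rest. The part of other cells' RNA in the levels was not tested. A further 12 ependymal barcodes had a sequence that occurred in more than 1 library.

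Motile cilia genes together made up 1.53% of all UMIs in ependymal barcodes and 0.0993% in other barcodes, or 15330 against 993.4 CPM. A typical ependymal barcode (median depth 1340 UMIs) held UMIs of 14 of the 87 genes, and a typical other barcode (887 UMIs) of 1. Although the ependymal barcodes held 3.5% of the UMIs of kept barcodes, they held 35% of the motile cilia UMIs. In the 9 mice with at least 3 ependymal barcodes the ependymal level was lowest in Tg2576-PMX205 1 (7773 CPM), had its median at 14840 and was highest in Tg2576-PMX205 2 (21520). Other barcodes of all 16 mice lay between 818.2 and 1358, so the classes did not overlap. Their means were 14890 ± 4282 (SD, n = 9 mice) and 1059 ± 151.4 (SD, n = 16 mice), and the ratio within a mouse ran from 6.48 to 22.9 with a median of 15.1.

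**Figure D1:**
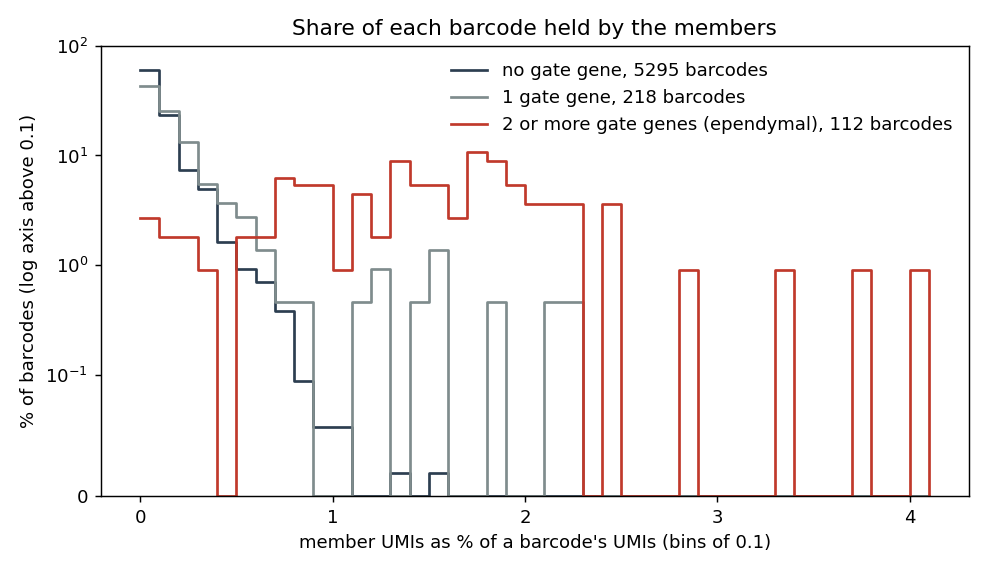
Share of each barcode's UMIs that came from motile cilia genes (x axis, percent, bins of 0.1) against the percent of barcodes in each bin (y axis, logarithmic above 0.1), for barcodes with no gate gene, 1 gate gene, and 2 or more. Of 112 ependymal barcodes, 100 lie above 0.643%, the 99th percentile of barcodes with no gate gene.

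The level differed with the number of gate genes in a barcode, which is given as a description. Barcodes with 0, 1, 2, 3 and 4 gate genes had 993.4, 1865, 9081, 16160 and 16140 CPM of motile cilia genes at median depths of 887, 1005, 900.5, 1085 and 2576 UMIs. The 26 barcodes with exactly 2 gate genes, just inside the gate, thus lay below the 86 with more, and the 218 with 1, just outside, lay above the other barcodes (1865 against 993.4 CPM) and below those with 2. The middle 50% of ependymal barcodes drew 0.941 to 1.87% of their UMIs from motile cilia genes, and 0.132% of other barcodes passed the lower of these values. In 3 ependymal barcodes no motile cilia UMI was seen.

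Of the 87 genes, 75 had enough UMIs to be tested over these 9 mice (edgeR quasi-likelihood test with the mouse as a block, Benjamini-Hochberg adjustment over all 14141 genes tested, threshold 0.05). Higher in ependymal barcodes were 65, none was lower and 10 did not pass. Over all genes tested, 10.4% were higher and 8.5% lower. Foxj1, a gate gene, directs the motile programme, so the gate itself favours barcodes with these genes. The counts here and against astrocytes and microglia are not independent of that choice. The median log2 fold change was 4.45 for the motile cilia genes and -0.31 for all genes. It was 3.40 and -1.23 with TMM, the scaling planned at first, and 3.25 and -0.81 with DESeq2, so the folds below depend on the scaling by UMI totals. Because a gene can reach the minimum of 10 UMIs through its ependymal level alone, the count was repeated for genes with 10 UMIs in other barcodes, where 42 of 52 motile cilia genes were higher against 8.39% of all genes. In 10 genes every mouse's ependymal level lay above that of every mouse's other barcodes, which held for 1.02% of all genes tested. The split over all genes depended on the scaling: 1465 were higher and 1202 lower when each sum was scaled by its own UMI total, as used throughout, against 808 and 3798 with TMM and 618 and 4189 with DESeq2. The motile cilia genes higher in ependymal barcodes then numbered 57 and 51, again with none lower. Without the 25 barcodes in which microglia marker UMIs outnumbered gate UMIs, a choice that itself uses the gate, 63 of 73 tested were higher, and without WT-vehicle 1 the count was 55 of 70.

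**Figure D2:**
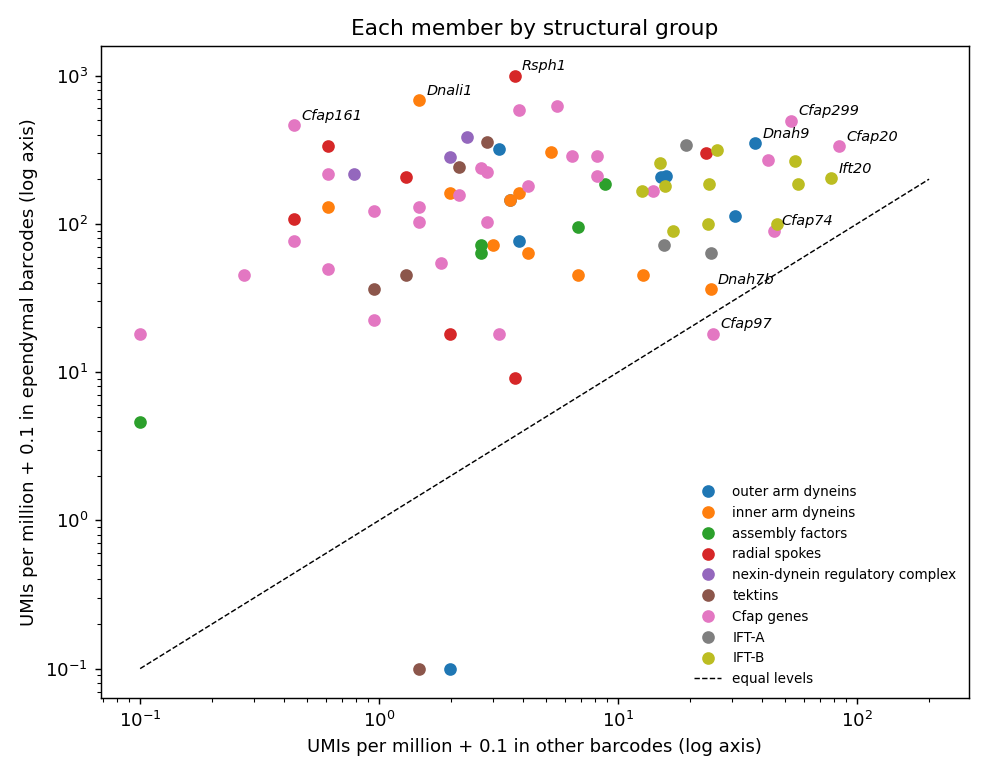
Level of each motile cilia gene in other barcodes (x axis) and in ependymal barcodes (y axis), in pooled CPM plus 0.1 on logarithmic axes, with the dashed line marking equal levels. Cfap97 (18 against 24.8) lies below the line, whereas Rsph1 (999.1 against 3.59) and Dnali1 (679.6 against 1.37) lie far above it.

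The radial spoke gene Rsph1 (chr17:31255019-31277383, GRCm38), which encodes a protein of the spoke head, had the most UMIs of the motile cilia genes in ependymal barcodes, 222 or 999.1 CPM. Its ependymal level over the 9 mice was 509.7 at the lowest, 1063 at the median and 1878 at the highest CPM, and in other barcodes it was 0, 3.69 and 10.8. The classes stood apart in every mouse (log2 fold change 8.09 ± 0.45 SE, adjusted p = 4.59e-68, edgeR). Some Rsph1 was seen in 52.7% of ependymal barcodes and in 0.188% of astrocytes and 0.245% of microglia, at median depths of 1340, 1082 and 905 UMIs. With every barcode thinned to 500 UMIs these shares were 30.8, 0.0751 and 0.106%.

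The other spoke genes followed with lower counts. Rsph4a, a further spoke head gene, had 74 UMIs in ependymal barcodes and 3 in other barcodes, and its mice spanned 85.9 to 527.6 CPM (median 284.4) against 0 to 4.23. Rsph10b ranged from 89.9 to 379.3 (median 171.8) against 0 to 2.72, also without overlap. Rsph9, a spoke head gene as well, reached 301.5 CPM, but other barcodes held 23.3 and the log2 fold change was 3.88. Together the 8 spoke genes stood at 1976 CPM in ependymal and 34.4 in other barcodes, 57.5-fold higher, and 6 of the 7 tested were higher (median log2 fold change 6.88). Rsph3b did not pass (adjusted p = 0.463, edgeR), and Rsph6a had no UMI in any kept barcode.

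All 3 genes of the nexin-dynein regulatory complex were higher in ependymal barcodes. Drc3 (chr11:60353329-60394341) measured 85.9 CPM in the lowest mouse, 393.0 in the median mouse and 983.9 in the highest, whereas other barcodes gave 0 to 4.02. Drc7 had a similar fold (log2 fold change 7.08 ± 0.68 SE) but was at 0 in the ependymal barcodes of 3 of the 9 mice. The complex as a whole stood at 882.1 against 4.79 CPM, a ratio of 184.

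Dynein genes of both rows of arms were higher in ependymal barcodes. Dnali1 (chr4:125055338-125065703), an inner arm light intermediate chain, ranged from 178.9 to 1266 CPM (median 633.1) in ependymal barcodes and from 0 to 4.23 in other barcodes, without overlap (log2 fold change 8.47 ± 0.55 SE). Its last 1000 bases overlap an exon of Gnl2 on the other strand. Dnah6, an inner arm heavy chain, was at 0 in 1 mouse and reached 547.4 in another, with a log2 fold change of 5.42. The 11 inner arm genes summed to 1845 against 66.7 CPM, and 9 were higher. Dnah7b and Dnah7c did not pass (log2 fold changes 0.95 and 1.63, adjusted p = 0.350 and 0.126, edgeR). They are close copies of Dnah7a, and whether reads were split between these 3 genes was not tested.

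Of the outer arm heavy chains, Dnah5 was nearly absent outside ependymal barcodes, whereas Dnah9 was not. Dnah5 (chr15:28203752-28472052) had a median of 322.8 CPM (0 to 948.1) against 2.01 (0 to 23.7). Dnah9 (chr11:65831282-66168551) had 379.3 (42.9 to 633.1) against 32.3 (23.1 to 44.3), and only its lowest ependymal value, that of Tg2576-PMX205 1, lay within the range of other barcodes. Their log2 fold changes were 6.57 ± 0.57 and 3.34 ± 0.44 (SE). The 9 outer arm genes summed to 1422 against 111 CPM, and 6 of 7 tested were higher. Dnal4 did not pass (log2 fold change 1.36, adjusted p = 0.0779, edgeR), Dnah17 was seen in other barcodes alone (11 UMIs), and Dnah8 was at 0 throughout.

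Dynein arms are put together in the cytoplasm by assembly factors, and 4 of the 6 such genes could be tested. All 4 were higher (log2 fold changes 3.36 to 4.75), and those with the highest ependymal levels were Cfap298 (184.5 against 8.73 CPM, log2 fold change 4.15) and Dnaaf5 (94.5 against 6.67, log2 fold change 3.36, which missed the threshold without WT-vehicle 1 at 2.86). Dnaaf3 had 1 UMI and Dnaaf2 none. Of 5 tektin genes, Tekt1, Tekt3 and Tekt4 were tested and higher. Tekt1 (chr11:72344722-72362442) ranged from 85.9 to 837.0 CPM (median 308.8) against 0 to 7.53, and Tekt4 from 105.5 to 664.3 (median 266.7) against 0 to 14.8. Neither overlapped, and Tekt5 was seen in other barcodes alone (8 UMIs).

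The 29 Cfap genes (cilia and flagella associated proteins, a name given to axonemal parts of many kinds) formed the largest set, with 5594 CPM in ependymal and 320.1 in other barcodes. Of 26 tested, 23 were higher. Cfap54 (chr10:92775619-93081618), a central pair gene, measured 257.7 CPM in the lowest mouse, 479.7 in the median mouse and 1422 in the highest, against 0 to 11.5 in other barcodes. Cfap161 (chr7:83774101-83794880) had 103 UMIs in ependymal barcodes and 2 in the other 5295. Its mice ran from 89.9 to 1594 CPM (median 468.7) against 0 to 1.36, and the log2 fold change was 9.72 ± 0.64 (SE), a fitted value that depends on so low a count. Both genes were free of overlap between classes.

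Other Cfap genes had higher levels outside ependymal barcodes. Cfap20, a protein of the doublet inner junction, stood at 333.0 against 84.2 CPM (log2 fold change 1.95 ± 0.42 SE, adjusted p = 5.46e-05, edgeR), and Cfap36 at 270.0 against 42.4 (log2 fold change 2.10). Neither call held under the other scalings, TMM and DESeq2, the latter giving 0.69 for Cfap20 (adjusted p = 0.133) and 0.58 for Cfap36 (adjusted p = 0.377). Cfap36 also missed the threshold without Tg2576-PMX205 2 (1.44) or WT-vehicle 1 (1.66). Cfap299 (chr5:98329304-98802047) had a median ependymal level of 386.5 CPM (0 to 1266) and 54.0 (38.1 to 74.4) in other barcodes, and the classes overlapped, with none seen in the ependymal barcodes of Tg2576-PMX205 3 and WT-vehicle 2. Cfap52, Cfap74 and Cfap97 did not pass (adjusted p = 0.0962, 0.452 and 0.841, edgeR). Cfap97 was the single tested gene with more CPM in other than in ependymal barcodes (18 against 24.8), and its log2 fold change of -0.35 ± 0.80 (SE) leaves either direction possible.

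IFT genes were higher in ependymal barcodes as well, by smaller factors. The 14 of them summed to 2516 CPM against 427.6, 5.88-fold higher, while all remaining motile cilia genes but the 2 antisense genes summed to 12820 against 565.8, 22.7-fold higher. The median log2 fold changes were 2.34 for the 14 IFT genes and 5.18 for 61 tested others, a description without a test. In other barcodes IFT genes made up 43.0% of the motile cilia UMIs, and in ependymal barcodes 16.4%. Ift43, of the IFT-A complex for return transport, was at 337.5 against 19.2 CPM (log2 fold change 3.91). Ift172, of the IFT-B complex for outward transport, was the IFT gene whose classes did not overlap, with 42.9 to 568.9 (median 168.4) against 7.91 to 38.4. Ift20, which also serves at the Golgi, had a median of 211.0 (0 to 357.8) against 75.3 (56.2 to 99.5), overlapped through the single mouse at 0, and passed with a log2 fold change of 1.48 ± 0.45 (SE, adjusted p = 0.00838, edgeR). That call was lost with TMM (0.45, adjusted p = 0.467), with DESeq2 (0.29, adjusted p = 0.512) and without WT-vehicle 1 (1.35). Ift46 and Ift122 likewise passed by UMI totals but not with TMM (0.78 and 1.27) or DESeq2 (0.58 and 1.17). Ift140, Ift52 and Ift57 did not pass (log2 fold changes 0.85, 1.13 and 1.73).

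**Figure D3:**
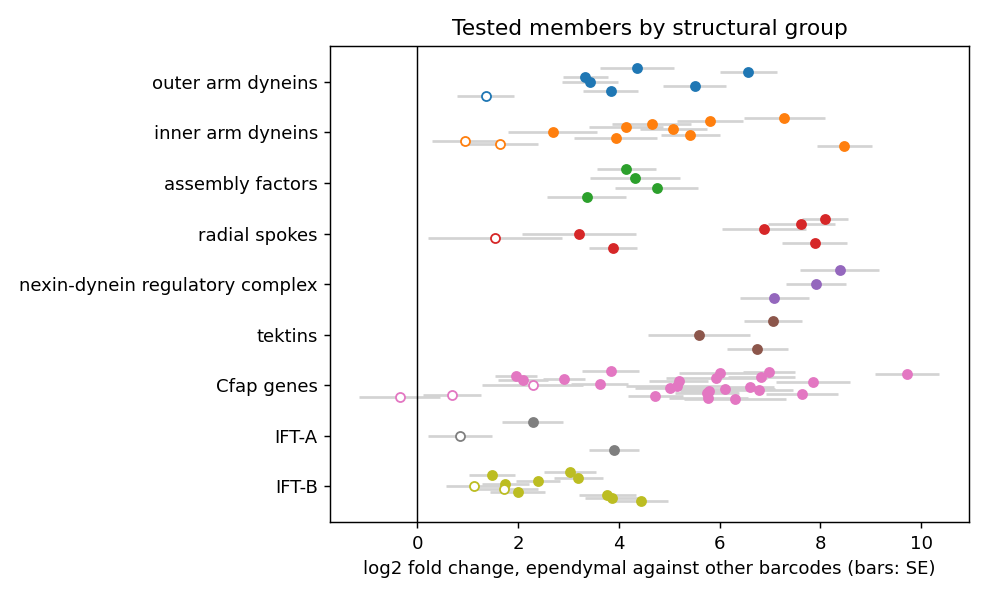
Log2 fold change of each tested motile cilia gene between ependymal and other barcodes (edgeR fit over 9 mice, bars show SE), by structural group, with filled points past the threshold and open points not. Group medians run from 2.29 and 2.39 for IFT-A and IFT-B to 7.91 for the nexin-dynein regulatory complex.

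Astrocytes and microglia, picked by their own markers among barcodes without gate genes, held 1137 and 832.5 CPM of motile cilia genes. Against the 1065 astrocytes, 61 of 72 tested genes were higher in ependymal barcodes and none lower (9.83% of all genes higher, 6.31% lower), with a median log2 fold change of 4.46 against -0.06 for all genes. Against the 2449 microglia, 64 of 73 were higher and none lower (15.3% of all genes higher, 9.96% lower), with medians of 4.82 and -0.06. Of these tested genes, 44 and 43 had under 10 UMIs in the glial class and reached the minimum with their ependymal UMIs. Among genes with 10 UMIs in astrocytes alone, 19 of 28 were higher (5.58% of all such genes), and among those with 10 in microglia alone, 22 of 30 (10.6%). With TMM the counts were 54 and 60, and with DESeq2 34 and 44. The all-gene calls then split into 623 higher and 1507 lower (TMM) against astrocytes, instead of 1077 and 691, and into 1105 and 3071 against microglia, instead of 1831 and 1192. Both comparisons used the same ependymal sums, so they are not independent.

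A few genes differed between the 2 glial types, given here as levels without a test between them. Ift27, an IFT-B gene, stood at 265.5 CPM in ependymal barcodes, 129.2 in astrocytes and 21.9 in microglia, and in none of the 9 mice was it higher in microglia than in astrocytes. It passed against microglia (log2 fold change 3.68 ± 0.50 SE) and missed the threshold against astrocytes (1.16 ± 0.45 SE, adjusted p = 0.0582, edgeR). Dnaic1, an outer arm intermediate chain, was at 48.9 in astrocytes and 1.76 in microglia. Cfap299 went the other way, with 20.4 in astrocytes and 74.1 in microglia, and was higher in microglia in 8 of 9 mice. Cfap74 was at 20.4 and 62.5 in the same order when pooled, but its means over mice were 43.7 ± 40.6 and 61.7 ± 24.6 (SD, n = 9) and it was higher in microglia in 6 of 9 mice.

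The pathway's other genes came from a list of 66 kept apart from the 87. Enkur, Meig1 and Dynlrb2 in it were also among the 11 genes that checked the name. Of 41 further axonemal and assembly genes, 34 of 37 tested were higher in ependymal barcodes and none lower (median log2 fold change 6.26, with 10.4% of all genes higher). The highest were Tubb4b, a tubulin of axonemes, at 1760 against 87.4 CPM, Ak7, an adenylate kinase of cilia, at 1076 against 4.28, Dynll1, a light chain shared with cytoplasmic dynein, at 1062 against 269.1, Dynlrb2 at 702.1 against 3.08 and Odf3b at 585.1 against 2.40. Dynll1 did not pass with TMM or DESeq2 (log2 fold changes 0.74 and 0.55 instead of 1.84). Of 19 genes of the primary cilium 13 were higher, 6 did not pass and none was lower (median 2.46, again with 10.4% of all genes higher). Of 6 transcription factors of ciliogenesis 3 could be tested. Myb (log2 fold change 6.50 ± 0.77 SE) and Rfx2 (4.08 ± 0.58 SE) were higher, and Rfx3 did not pass (0.63 ± 0.55 SE, adjusted p = 0.473, edgeR). The gate genes themselves, which chose the barcodes, stood at 2421 (Ccdc153), 2273 (Tmem212), 1566 (Tppp3) and 1211 (Foxj1) CPM.

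RFX transcription factors bind X-box motifs in promoters of ciliary genes, and Foxj1 directs the motile programme. Promoter windows of 250 bases before to 50 after the start (RefSeq, GRCm38.p6) were found for 70 of the 87 genes, 77 windows in all. The letters GTTGCC, the start of an X-box arm, stood on either strand in 37.7% of these windows (29) and in 12.5% of all 32851 windows. They were in 5 of 11 IFT windows and 24 of 66 windows of the remaining genes. The looser arm GTTNCC was in 74.0% against 45.3%, in 11 of 11 IFT windows and in 46 of the 66 others. The forkhead core TGTTTA was in 18.2% against 13.4%, and a fuller X-box (the arm GTTNCC, then 3 bases, then GNAAC) was in 7.79% against 0.804%, and in none of the 11 IFT windows. A stricter form of the same length, with the last of those 3 bases fixed to G (GTTNCCNNGGNAAC), was in 1 window, 1.3% against 0.451%. A match is a run of letters and not a shown binding site, base composition was not matched, and some genes have overlapping windows. The 250 bases before the start are given for the 4 genes with the highest ependymal level among those with GTTGCC there and no annotated exon, 5′ to 3′ on the gene's strand, with GTTGCC or its reverse complement in capitals.

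Tekt1 (chr11:72361883-72362132, strand -): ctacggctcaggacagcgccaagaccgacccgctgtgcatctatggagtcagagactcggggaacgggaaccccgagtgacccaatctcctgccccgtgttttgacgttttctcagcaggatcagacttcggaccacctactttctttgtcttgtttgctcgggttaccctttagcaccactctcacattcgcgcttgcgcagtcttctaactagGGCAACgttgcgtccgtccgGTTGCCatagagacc
Cfap20 (chr8:95434870-95435119, strand -): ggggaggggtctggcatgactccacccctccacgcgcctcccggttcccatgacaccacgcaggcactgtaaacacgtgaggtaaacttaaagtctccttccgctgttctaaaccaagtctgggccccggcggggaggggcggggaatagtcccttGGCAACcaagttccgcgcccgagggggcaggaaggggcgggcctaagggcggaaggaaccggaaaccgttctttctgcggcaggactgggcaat
Cfap97d2 (chr8:13705639-13705888, strand +): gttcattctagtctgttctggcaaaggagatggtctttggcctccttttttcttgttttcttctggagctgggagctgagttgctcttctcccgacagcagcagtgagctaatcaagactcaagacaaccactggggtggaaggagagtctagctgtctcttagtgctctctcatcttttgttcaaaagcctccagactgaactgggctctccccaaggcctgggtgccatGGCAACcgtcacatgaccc
Dnah7a (chr1:53706785-53707034, strand -): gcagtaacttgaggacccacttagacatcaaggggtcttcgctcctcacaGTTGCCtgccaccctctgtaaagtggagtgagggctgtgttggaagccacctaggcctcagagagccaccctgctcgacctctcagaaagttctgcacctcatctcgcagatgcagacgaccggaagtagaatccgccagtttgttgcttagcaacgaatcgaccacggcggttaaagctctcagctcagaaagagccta

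In Tekt1, whose level was described above, both copies lay within 35 bases of the RefSeq start. That start lies inside the gene interval given above, which is that of GENCODE and reaches further upstream. Positions for the other genes are from the RefSeq start as well, and in Cfap20 the single copy began 94 bases before it. The Cfap97d2 copy began 19 bases before the start, and that gene was at 103.5 CPM in ependymal barcodes against 1.37 in other barcodes. The Dnah7a copy began 200 bases before it, and Dnah7a was at 72.0 against 2.91.

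Ependymal barcodes came from both regions. They were 61 of 4280 barcodes in cortex (14 of 16 libraries) and 51 of 1345 in hippocampus (8 of 16 libraries). Library shares had a median of 1.06% in cortex (0 to 6.79) and 0.292% in hippocampus (0 to 14.3), the highest being WT-vehicle 1. Their means were 1.73 ± 1.77 and 2.85 ± 4.35% (SD, n = 16 libraries each). Within mice the hippocampal share was higher in 5, lower in 10 and equal in 1, with a mean difference of 1.12 ± 4.62 percentage points (SD, two-sided permutation test over mice, p = 0.38). That difference was 0.27 without WT-vehicle 1 and 0.0615 with barcodes of at least 1000 UMIs. Where a library had no ependymal barcode, its upper limit ran up to 18.8% (0 of 16 barcodes in WT-vehicle 5 hippocampus), which covers counting error only.

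**Figure D4:**
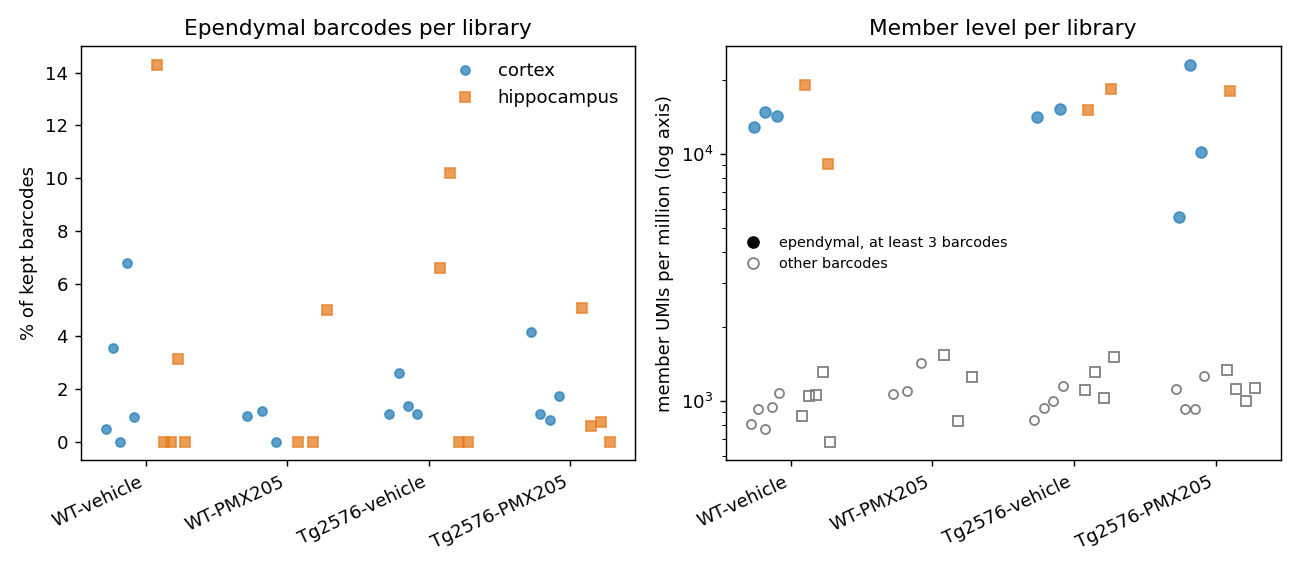
Left, percent of kept barcodes called ependymal in each library by group; right, CPM of motile cilia genes in ependymal barcodes (filled, libraries with at least 3) and in other barcodes (open grey), with circles for cortex and squares for hippocampus. Ependymal levels lie between 5578 and 22970 and other barcodes between 685.5 and 1534, and the groups overlap in the share.

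The level of motile cilia genes in ependymal barcodes was 13140 CPM in cortex and 17480 in hippocampus when pooled, and the libraries with at least 3 such barcodes overlapped: 5578 to 22970 (median 14200, 8 libraries) against 9138 to 19060 (median 18020, 5 libraries). The cortical library at 5578, Tg2576-PMX205 1, is the one whose ependymal barcodes held 15480 CPM of microglia markers, within the range of other barcodes. Other barcodes stood at 947.8 and 1111. Over these 13 libraries 0 of 69 tested motile cilia genes passed (edgeR, 0.0% of 5032 genes), while 3 of them and 267 of all genes had an unadjusted p under 0.05. DESeq2 also called 0 of the 69, with 1 below that unadjusted p. The fitted log2 differences had a median SE of 0.84 (derived from the test, as described below), to which counting error and the spread between libraries both contribute. With the mouse as a block (4 mice, 8 libraries) 0 of 62 passed.

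Among the 69 motile cilia genes tested, Cfap299 had the lowest p in the comparison of regions. In hippocampus its 5 libraries had 550.9, 609.2, 699.5, 1461 and 1470 CPM, and in cortex the 8 libraries ran from 0 to 531.4 with 3 at 0. All hippocampal libraries lay above all cortical ones, by a narrow gap between 531.4 in Tg2576-vehicle 3 cortex and 550.9 in Tg2576-vehicle 1 hippocampus. The log2 difference was 2.11 ± 0.63 (SE), and it did not pass over all genes (adjusted p = 0.247, edgeR). By contrast, Rsph1 stood at 873.5 in cortex and 1122 in hippocampus, pooled.

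Genotype and treatment were compared on the share of ependymal barcodes and on the genes within them. The share per mouse in WT-vehicle was 0, 0.862, 2.30, 3.20 and 5.68%, in WT-PMX205 0.671, 0.806 and 1.60%, in Tg2576-vehicle 0.922, 0.948, 2.84 and 5.88%, and in Tg2576-PMX205 0.798, 0.963, 1.11 and 4.41%. All 4 groups overlapped. The means were 2.41 ± 2.21, 1.03 ± 0.50, 2.65 ± 2.34 and 1.82 ± 1.73% (SD, n = 5, 3, 4 and 4 mice). Tg2576-vehicle minus WT-vehicle was 0.239 percentage points, Tg2576-PMX205 minus Tg2576-vehicle -0.828 and WT-PMX205 minus WT-vehicle -1.38 (exact two-sided permutation tests, p = 0.857, 0.629 and 0.321, each 0.857 after adjustment over the 3). The first of these changed sign without Tg2576-vehicle 2 (-0.839), WT-vehicle 3 (-0.363) or WT-vehicle 5 (-0.147), and the second without Tg2576-vehicle 2 (0.25). The first was 1.62 without the mice with contradicting labels, the second -1.69 without Tg2576-PMX205 1, and the third -0.566 without WT-vehicle 4. In sums of barcodes, fewer ependymal cells and less RNA in each cannot be told apart from a share alone.

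Motile cilia genes in ependymal barcodes were at 13730, 14760 and 18710 CPM in the 3 WT-vehicle mice with enough barcodes, at 14840, 15150 and 17830 in Tg2576-vehicle and at 7773, 9655 and 21520 in Tg2576-PMX205. The vehicle groups overlapped, and the treated mice lay on both sides of them. The mouse at 7773, Tg2576-PMX205 1, is the one whose ependymal barcodes held 13100 CPM of microglia markers, the most of the 9 mice. Of 70 genes tested, 0 passed between Tg2576-vehicle and WT-vehicle (0.0195% of 5116 genes higher, 0.0% lower) and 0 between Tg2576-PMX205 and Tg2576-vehicle (0.0% in both directions, edgeR). In each of these comparisons 4 of the 70 had an unadjusted p under 0.05, as did 224 and 296 of the 5116 genes, and DESeq2 called 0 (0 and 1 below that unadjusted p, and 36 and 68 of all genes). Both used the Tg2576-vehicle mice, and their median SE was 1.02 and 1.17 on the log2 scale. WT-PMX205 could not be fitted, with 4 ependymal barcodes in all.

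Among the 70 motile cilia genes tested, Drc7 had the lowest p under treatment. The Tg2576-vehicle mice had 132.9, 389.8 and 1266 CPM in ependymal barcodes, from 1, 13 and 12 UMIs, and all 3 Tg2576-PMX205 mice were at 0. The groups did not overlap, but the change did not pass over all genes (log2 fold change -6.73 ± 1.65 SE, a fitted value against counts of 0, adjusted p = 0.219, edgeR). The 3 WT-vehicle mice had 168.4, 357.8 and 401.8. Over 21 settings the log2 fold change of Drc7 under treatment ran from -7.23 to -3.23, and it passed in none.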

How the data were processed

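UMI counts per gene and barcode were deposited by the authors for each library, without normalization. The authors made them with kb count of kallisto bustools, set for SureCell reads, against mm10 and GENCODE annotation (written as v21), and all 55341 symbols matched GENCODE M21. The submitters' processing notes also name bcl2fastq 2.18.0.12 and Seurat. Reads come from 3′ ends, so counts were not scaled by gene length, and reads of overlapping genes may be shared. For 18 of the 87 genes an exon of another gene lies in the last 1000 bases.

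Barcodes with at least 500 UMIs, at least 300 genes and at most 5% mitochondrial UMIs were kept (5965 of 13917), and the top 6% of each library by Scrublet score (scanpy 1.11.5) were removed as doublets, leaving 5625. A barcode was ependymal with at least 2 of 4 gate genes and other with none. Astrocytes and microglia needed 5 marker UMIs of which 75% were of 1 class. The digit in the rule for gene symbols was applied to Ift.

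UMIs were summed per mouse and class, or per library for regions, where at least 3 ependymal barcodes were present. Genes with 10 UMIs over the sums, gate genes left out, were tested with edgeR 4.0.16 (quasi-likelihood, R 4.3.3), the mouse being a block between classes, with Benjamini-Hochberg adjustment over all genes. The SE of an edgeR log2 fold change was its size divided by the square root of the test's F statistic. It was not taken from the model and is unreliable for fold changes near 0. Between Tg2576-vehicle and WT-vehicle, Cfap157 had 0.0058 with an SE of 9.14, and Cfap70 had -0.00055 with 0.2585. Sums were scaled by their UMI totals. This departs from the plan, which named TMM, and was decided after counts of calls under several scalings of the real data had been seen. The reason was a test on simulated data, in which TMM made more false calls than UMI totals between classes of barcodes but not between regions or mouse groups. The simulated counts followed the UMI totals by construction, which favours that scaling, so they do not show which scaling suits the real sums. TMM and DESeq2 1.42.0 are given as alternatives. Shares were compared by exact permutation of mice between groups, and by all sign changes of the differences within mice between regions. Thinning to 500 UMIs was the mean of 20 draws.

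Regions of a mouse share the animal, so shares were compared within mice. Genes were compared between regions over all 13 libraries without a block, and with the mouse as a block in an alternative. Over 5032 genes the correlation of their deviations from the group means was 0.0233, 0.0433, 0.0195 and 0.00854 in the 4 mice with both regions.

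Members, gene lists and tests were chosen with earlier results of these data known. Genes named were the 20 highest in ependymal barcodes, the 2 highest of each structural group, the 5 with most UMIs in other barcodes, the 5 highest other ciliary genes and the gate genes. Those that failed the test, those at 0, those that differed between glial types, Ift172, Rsph10b, Cfap97d2, Dnah7a, Myb and the RFX genes were named after their values were seen.

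Alternatives changed the gate (at least 3 genes), the UMI minimum (1000), doublets, merged barcodes differing at the first base, the low-count filter, the minimum of ependymal barcodes (5), the mouse block, the tool, and left out the 2 mice with contradicting labels or each mouse in turn. Listed as alternatives after the data were seen were TMM, moved from the main fit, and leaving out shared barcodes, gated barcodes with more microglia marker than gate UMIs, and the 4 mice with many first-base pairs. Tables were made in Python 3.11.15 with pandas 2.3.3, NumPy 2.4.6 and SciPy 1.17.1, and figures with matplotlib 3.10.9.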

Additional observations from a re-analysis of the deposited data

Results flagged for a closer look

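The share of ependymal barcodes stood apart in 3 of 18 groups tested for a sample far from the rest (chance gives about 1 in 20). In hippocampus it was 14.3% in WT-vehicle 1, the highest of 5 mice, and 5.06% in Tg2576-PMX205 1, the highest of 4. Over both regions it was 4.41% in Tg2576-PMX205 1, the highest of 4. That value includes the hippocampal library of the same mouse, so the flags are not independent. The 3 of 18 therefore cannot be read against the rate of 1 in 20.

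Signal also lay in barcodes that no comparison used. Among barcodes outside the limits on UMIs, genes and mitochondrial share, 34 held at least 2 gate genes and had 14180 CPM of motile cilia genes, close to the 15330 of the kept ependymal barcodes and above the 993.4 of other barcodes. A single barcode of WT-vehicle 5 cortex with 508 UMIs and 78 genes, also outside the limits, held 140 of the 182 Cfap53 UMIs of the series, and the next highest barcode held 4.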

How the results depend on the processing

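No motile cilia gene was called lower in ependymal barcodes under any alternative that was run. The comparisons of regions, genotype and treatment called 0 of these genes under every alternative that could be fitted. With edgeR's own expression filter only 1 of these genes was tested in each of those comparisons. In the simulated data, fits by UMI totals recovered 55.5, 12 and 4% of genes changed 4-fold for regions, genotype and treatment. A count of 0 thus does not show that levels were equal. Against other barcodes, leaving out 1 mouse gave 55 to 66 genes higher, the fewest without WT-vehicle 1, against astrocytes 46 to 63 and against microglia 57 to 65. Against astrocytes edgeR's own expression filter gave 40 of 41 genes tested, where 670 of all 2248 genes tested were higher. DESeq2 gave 34 of 72, with 379 of all 10951 genes higher. Without the mouse block the counts were 68, 67 and 67, where 1803 of 14141, 1515 of 10951 and 2354 of 11964 of all genes were higher. With a block on the mouse the comparison of regions also called 0. That fit used 8 libraries instead of 13 and tested 62 of these genes instead of 69, so it cannot show what the pairing changed. Leaving out 1 mouse put the share difference between regions at 0.27 to 1.43 percentage points (0.0615 with at least 1000 UMIs, 1.7 without the mice with many first-base pairs), Tg2576-vehicle minus WT-vehicle at -0.839 to 1.06 (negative without Tg2576-vehicle 2, WT-vehicle 3 at -0.363 and WT-vehicle 5 at -0.147, and 1.62 without the mice with contradicting labels), Tg2576-PMX205 minus Tg2576-vehicle at -1.69 to 0.25 and WT-PMX205 minus WT-vehicle at -1.99 to -0.566. The pooled ependymal level stayed at 13740 to 16220 CPM.

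Fold changes of genes that did not pass turned sign in places, and the cause was not tested. Against other barcodes TMM and DESeq2 gave log2 fold changes of -0.21 and -0.37 for Cfap74, -0.0418 and -0.25 for Dnah7b and -0.0951 and -0.24 for Ift140. Cfap97 was at 0.25 with doublets kept, and Rsph3b ran from -2.42 (without WT-vehicle 1) to 2.10 with 1 mouse left out. Against astrocytes Dnah7b was at -0.25 (TMM) and -0.40 (DESeq2), and with DESeq2 Ift140 at -0.48 and Ift57 at -0.12. Against microglia Cfap74 was at -0.70 (TMM), -0.87 (DESeq2) and from -0.15 (without Tg2576-PMX205 1) to 0.43 with 1 mouse left out, Ift52 at -0.17 (TMM) and -0.34 (DESeq2) and Ift140 at -0.31 (DESeq2). Cfap97 there was from -0.83 to 0.0912 (without Tg2576-PMX205 1) with 1 mouse left out, 0.00796 at 1000 UMIs and 0.28 with doublets kept. Of 2828 values of named genes under alternatives, 2692 kept direction and side of the threshold, 70 fell below it and 45 rose past it. Among genes that did not pass against other barcodes, Cfap52, Dnah7c, Dnal4, Ift52 and Ift57 passed under some alternative. The comparison of treatment without the 4 mice with many first-base pairs could not be fitted. Single mice gave 6318 to 71241 ependymal UMIs, and the part of depth in the counts of 0 was not tested.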
